A study of Drosophila melanogaster with 8 samples.

Results

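The genes described here are 8 genes of the tracheal system that were measured in wing discs: btl, bnl, trh, vvl, knrl, esg, Gasp and serp. They were taken by symbol from the deposited table of read counts per gene, in which 8 of the 9 symbols sought were present, among 14299 genes. The ninth gene sought, verm, is stored under its older symbol LCBP1, which RefSeq lists as a synonym of verm. Its values are given beside those of the 8 genes, and it is not included in their counts. All 8 genes passed the filter on low counts, as did LCBP1, out of 9076 genes tested.

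The tracheal system is the network of tubes that carries air to the tissues of the fly. Its branches grow towards sources of Branchless (Bnl), a fibroblast growth factor (FGF), which is read by the FGF receptor Breathless (Btl) on tracheal cells. In the third larval instar a tracheal branch lies on the wing disc and forms the air sac primordium there, with disc cells as the source of Bnl. Trachealess (Trh), a transcription factor of the bHLH-PAS family, sets the tracheal fate with its partner Tango and switches on btl in the embryo. Ventral veins lacking (Vvl), Knirps-like (Knrl) and Escargot (Esg) are transcription factors that act in the trachea and also in the disc epithelium, and Gasp, Serpentine (Serp) and Vermiform (Verm) are secreted proteins of the chitinous tube lumen.

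The libraries came from mesothoracic wing discs of male larvae of the third instar, 5 from Myb mutant and 3 from yw67 control animals. Myb mutant males carried Myb MH107, a transposon-derived deletion without Myb function, in which the start of the gene and AlkB next to it are missing and with which animals die as early pupae. The control, a yellow white line, is the stock into which the mutation had been outcrossed. The protocol called all libraries biological replicates, whereas the sample descriptions assigned the 3 control libraries to 1 biological replicate, Myb mutant library 1 to a second and Myb mutant libraries 2 to 5 to another. With control discs of 1 described biological replicate, genotype and biological replicate cannot be told apart, and p-values measure the spread between these libraries, which may be technical. The discs were dissected whole, so that attached tracheal branches, myoblasts and hemocytes contribute to the same counts as the disc epithelium.

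Total counts ran from 54096227 to 65322440 in Myb mutant libraries and from 50562199 to 59832900 in control libraries. Levels are given in CPM, the counts of a gene as a share of the library total set to 1e+06, after the library totals were adjusted by TMM, which aligns the libraries on genes of little change. The edgeR quasi-likelihood test was run over all tested genes, and a gene was called at a Benjamini-Hochberg adjusted p under 0.05. Myb itself had 5.79 ± 1.13 CPM in Myb mutant discs and 301 ± 4.94 CPM in control discs (SD, n = 5 and 3), and AlkB had no counts in any Myb mutant library, against 7.21 to 8.39 CPM in control libraries. Control library 2 stood apart from the other control libraries for several of the genes below, and results are given without it where that matters. The difference was not confined to these genes. Over 6510 genes, squared count differences relative to counting noise averaged 226.9 and 312 per gene between it and control libraries 1 and 3. Control libraries 1 and 3 gave 72.11, and pairs of Myb mutant libraries gave 16.21 to 86.32. Of all tested genes, 34.4% were called, 17.5% lower and 16.9% higher in Myb mutant discs, and for 38.9% the Myb mutant and control values were fully separated.

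Of the 8 tracheal genes, the receptor gene btl and the transcription factor gene trh were lower in Myb mutant discs, Gasp was higher, and bnl, vvl, knrl, esg and serp were not called. The 3 calls are 37.5% of the 8 genes, close to the 34.4% of all tested genes. The median log2 fold change of the 8 genes was -0.05, beside 0.01 for all tested genes. None of the 8 genes changed by 2-fold or more. The called genes went in both directions, and the summed level of the 8 genes was 1002 to 1096 CPM in Myb mutant libraries and 1022 to 1055 CPM in control libraries. Most of that sum was vvl (448 CPM in Myb mutant and 400 CPM in control discs) and serp (313 and 339 CPM). The called genes btl (9.73 and 17.0 CPM) and trh (44.0 and 55.7 CPM) made up little of it.

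**Figure D1:**
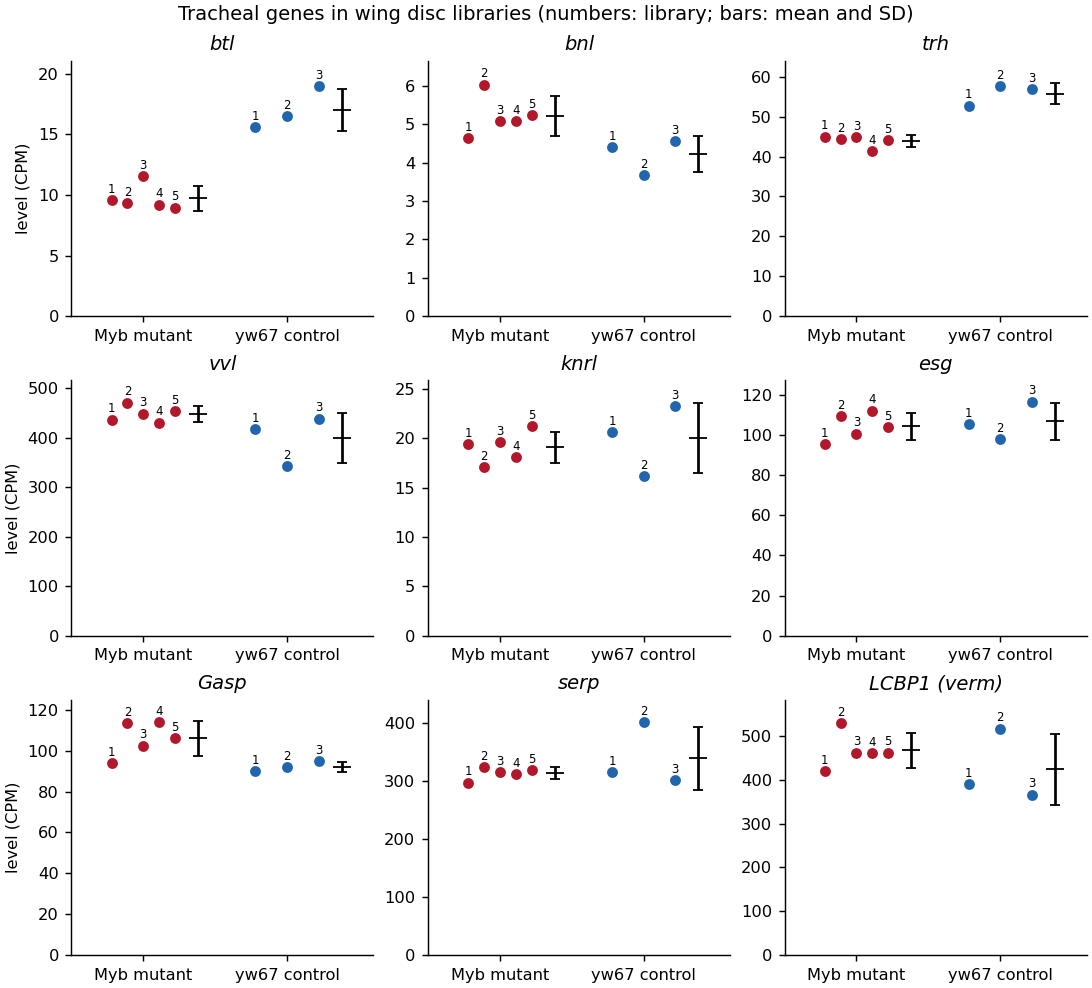
Level in CPM (y axis, from 0) of each tracheal gene in the 5 Myb mutant libraries (red) and the 3 yw67 control libraries (blue), with library numbers beside the points and bars for the mean and SD. The genotypes do not overlap for btl, trh and bnl, and they overlap for the other genes.

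The FGF receptor gene btl showed the steepest fall among them. btl (FBgn0005592, BDGP6 3L, 14075772 to 14083229, plus strand) had 9.57, 9.34, 11.5, 9.21 and 8.97 CPM in Myb mutant libraries 1 to 5, against 15.6, 16.5 and 19.0 CPM in control libraries 1 to 3. Every Myb mutant library was below every control library, and Myb mutant library 1, the only one of its described biological replicate, lay among libraries 2 to 5. The means were 9.73 ± 1.04 CPM in Myb mutant discs and 17.0 ± 1.75 CPM in control discs (SD, n = 5 and 3), so that btl fell by 42.9% (log2 fold change -0.81 ± 0.10 SE, 95% interval -1.03 to -0.59, edgeR adjusted p = 0.000339). The values rest on 497 to 754 counts in a Myb mutant library and 786 to 1149 counts in a control library. In bulk discs, fewer btl-expressing cells and less btl RNA in each of them cannot be told apart.

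The call of btl held in all 8 fits that left out a library, with log2 fold changes from -0.88 without Myb mutant library 3 to -0.72 without control library 3. It also held with the libraries summed by described biological replicate (log2 fold change -0.84, edgeR adjusted p = 0.0248), a fit that takes its spread from the 2 mutant sums and assumes the single control sum to vary like them.

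The gene of Trachealess fell less than btl but as uniformly. trh (FBgn0003749, 3L, 366524 to 392633, minus strand) had 45.0, 44.5, 44.9, 41.3 and 44.2 CPM in Myb mutant libraries 1 to 5, against 52.8, 57.6 and 56.8 CPM in control libraries 1 to 3. The groups did not overlap, and the highest Myb mutant library was below the lowest control library by more than the spread within either group. The means were 44.0 ± 1.52 CPM in Myb mutant discs and 55.7 ± 2.61 CPM in control discs, so that trh fell by 21.1% (log2 fold change -0.34 ± 0.05 SE, 95% interval -0.45 to -0.24, edgeR adjusted p = 0.000625). This call, too, held without any single library, at log2 fold changes from -0.38 to -0.32, and with summed libraries (-0.35, edgeR adjusted p = 0.0316). In BDGP6 trh shares 525 bp of exon with lncRNA:CR45378 on the same strand, whose reads would be counted as trh.

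The ligand gene did not follow its receptor. bnl (FBgn0014135, 3R, 19794073 to 19836817, minus strand) had 4.64, 6.03, 5.08, 5.08 and 5.23 CPM in Myb mutant libraries 1 to 5, against 4.41, 3.68 and 4.56 CPM in control libraries 1 to 3. The groups did not overlap, although Myb mutant library 1 and control library 3 were close together. The means were 5.21 ± 0.509 CPM and 4.21 ± 0.472 CPM in Myb mutant and control discs, and the difference did not pass the test (log2 fold change 0.31 ± 0.12 SE, edgeR adjusted p = 0.0762). Its 95% interval, which is not adjusted for the number of genes, was 0.04 to 0.58, and the log2 fold change was 0.21 without control library 2. With 201 to 334 counts in a library, bnl had the fewest counts of the 8 genes.

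The transcription factor genes that are shared with the disc epithelium were not called. vvl (FBgn0086680, 3L, 6790158 to 6794941, plus strand), a POU-domain gene also needed for wing veins, had 437, 471, 449, 431 and 454 CPM in Myb mutant libraries 1 to 5, against 418, 342 and 439 CPM in control libraries 1 to 3. Control library 2 was the lowest of all, and control library 3 lay within the Myb mutant range. The log2 fold change was 0.17 (95% interval -0.02 to 0.35, edgeR adjusted p = 0.149), and 0.06 without control library 2.

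knrl (FBgn0001323, 3L, 20597141 to 20620659, minus strand), a gene of the knirps group of nuclear receptor proteins that acts in branches migrating under Dpp and in the second wing vein, had 19.4, 17.1, 19.6, 18.1 and 21.3 CPM in Myb mutant libraries 1 to 5, against 20.6, 16.2 and 23.3 CPM in control libraries 1 to 3. All Myb mutant values lay within the control range. The log2 fold change was -0.07 (95% interval -0.33 to 0.19, edgeR adjusted p = 0.672). It was -0.21 when control library 2 was left out, and 0.05 when control library 3 was. Its neighbour kni, the other knirps group gene of branches and vein, had 38.6 ± 2.51 CPM in Myb mutant discs and 43.1 ± 5.52 CPM in control discs (log2 fold change -0.16, edgeR adjusted p = 0.184).

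esg (FBgn0001981, 2L, 15333866 to 15336138, plus strand), a Snail family zinc-finger gene of tracheal fusion cells and of diploid imaginal cells, had 95.6, 110, 101, 112 and 104 CPM in Myb mutant libraries 1 to 5, against 106, 98.2 and 117 CPM in control libraries 1 to 3. The groups overlapped throughout. The log2 fold change was -0.03 (95% interval -0.19 to 0.12, edgeR adjusted p = 0.744), and 0.04 without control library 3.

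Among the genes of the tube lumen, the chitin-binding protein gene Gasp was called higher by a small margin. Gasp (FBgn0026077, 3R, 6088799 to 6100887, minus strand) had 94.0, 114, 103, 114 and 106 CPM in Myb mutant libraries 1 to 5, against 90.0, 92.0 and 94.9 CPM in control libraries 1 to 3. Myb mutant library 1 lay below control library 3, and the other 4 Myb mutant libraries were above all control libraries. The means were 106 ± 8.39 CPM and 92.3 ± 2.44 CPM in Myb mutant and control discs (log2 fold change 0.20 ± 0.06 SE, 95% interval 0.05 to 0.35, edgeR adjusted p = 0.0413). The call was kept in 1 of the 8 fits that left out a library, that without Myb mutant library 1, with edgeR adjusted p up to 0.116 without control library 1. With summed libraries it was lost as well (log2 fold change 0.12, edgeR adjusted p = 0.478).

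The chitin deacetylase genes, which limit the length of tracheal tubes, lie side by side on 3L and differed between control libraries more than between genotypes. serp (FBgn0052209, 3L, 19700977 to 19708015, minus strand) had 297, 324, 315, 312 and 318 CPM in Myb mutant libraries 1 to 5, against 315, 401 and 301 CPM in control libraries 1 to 3. LCBP1 (FBgn0036901, 3L, 19690033 to 19695260, minus strand, verm in BDGP6) had 421, 531, 463, 462 and 463 CPM in Myb mutant libraries 1 to 5, against 390, 518 and 367 CPM in control libraries 1 to 3. For both genes control library 2 was the highest control library, the reverse of its place for vvl, knrl, esg and bnl.

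Neither deacetylase gene was called. The log2 fold change of serp was -0.11 (95% interval -0.32 to 0.09, edgeR adjusted p = 0.364) and became 0.02 without control library 2. That of LCBP1 was 0.14 (95% interval -0.13 to 0.41, edgeR adjusted p = 0.396), and without control library 2 it was 0.30 and called higher (edgeR adjusted p = 0.0240).

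**Figure D2:**
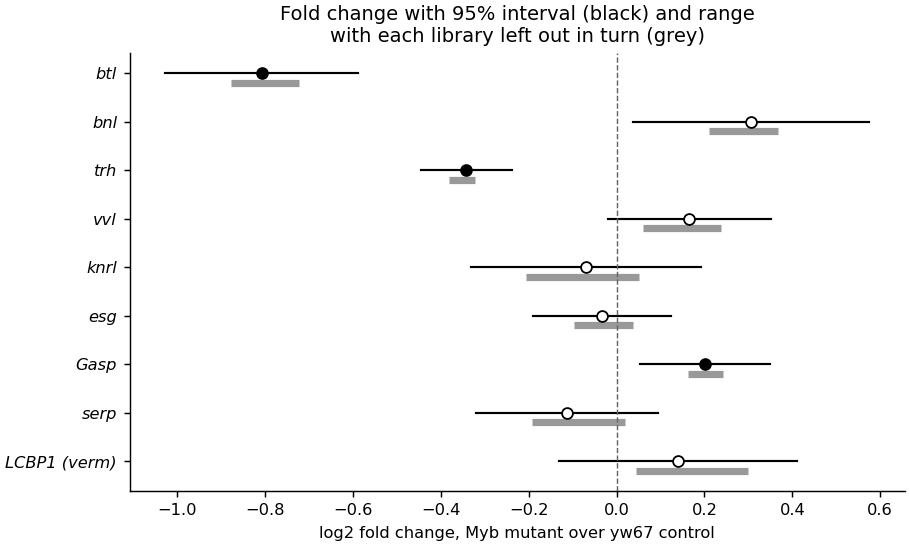
Log2 fold change of Myb mutant over yw67 control (x axis) for each tracheal gene, with the 95% interval in black and, in grey, the range of the estimate when each library is left out in turn. Filled points are called. Both the interval and the grey range lie below 0 for btl and trh, and the grey range crosses 0 for knrl, esg and serp.

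The genes differed widely in level. Per kilobase of exon in BDGP6, which is not the annotation the reads were counted on, the order in Myb mutant discs was LCBP1 at 198, serp at 123, vvl at 93.7, esg at 46.0, Gasp at 45.0, trh at 7.99, knrl at 4.88, btl at 2.45 and bnl at 1.14 CPM per kilobase. In control discs it was LCBP1 at 179, serp at 133, vvl at 83.6, esg at 47.0, Gasp at 39.2, trh at 10.1, knrl at 5.12, btl at 4.29 and bnl at 0.924 CPM per kilobase. The order was the same in both genotypes. Neighbours whose libraries overlapped were esg and Gasp in Myb mutant discs, and LCBP1 and serp as well as knrl and btl in control discs. knrl and btl thus overlapped in control discs, at 4.15 to 5.95 and 3.93 to 4.78 CPM per kilobase, but not in Myb mutant discs, at 4.37 to 5.44 and 2.26 to 2.91 CPM per kilobase. Receptor gene and transcription factor gene sat at the low end of these levels, far below vvl and the lumen genes.

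Ratios within a library do not depend on the scaling between libraries, and the ratio of btl to each of the genes it was set against was lower in every Myb mutant library than in every control library. These ratios are a description with no test, and the genes set against btl were chosen with the levels known. The ratio of btl to bnl, receptor to ligand, was 2.06, 1.55, 2.27, 1.81 and 1.72 in Myb mutant libraries 1 to 5, against 3.54, 4.49 and 4.16 in control libraries 1 to 3. Its mean was 1.88 ± 0.286 in Myb mutant discs and 4.06 ± 0.481 in control discs (SD, n = 5 and 3). The ratio of btl to trh was 0.203 to 0.257 in Myb mutant libraries and 0.286 to 0.334 in control libraries, so that btl was lower also relative to trh, without overlap. Relative to htl, the FGF receptor gene of the mesoderm and disc myoblasts, btl stood at 0.156 to 0.212 in Myb mutant libraries and 0.292 to 0.332 in control libraries. Relative to stumps, the gene of the adaptor that both FGF receptors use, it stood at 0.0975 to 0.140 in Myb mutant libraries and 0.182 to 0.216 in control libraries.

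**Figure D3:**
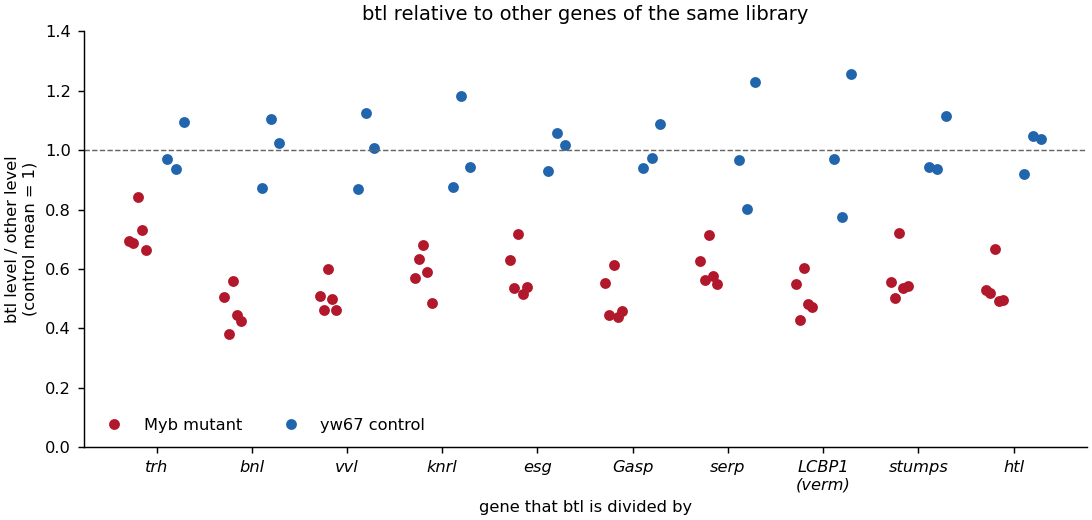
Level of btl divided by the level of another gene in the same library (x axis, the other gene), scaled so that the mean of the 3 control libraries is 1 (y axis, from 0). The 5 Myb mutant libraries (red) lie below the 3 control libraries (blue) for every gene shown, with the smallest gaps for trh and serp.

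The other genes of FGF signalling were mostly not called, as were most of all tested genes. Of 18 tested genes, 3 were higher in Myb mutant discs and 15 were not called, with a median log2 fold change of 0.09. The share called was 16.7%, beside 34.4% of all tested genes in either direction and 16.9% higher. The receptor gene htl had 56.8 ± 1.63 CPM in Myb mutant discs and 53.6 ± 3.97 CPM in control discs (edgeR adjusted p = 0.246), and stumps had 88.2 ± 4.92 CPM and 87.7 ± 2.68 CPM (edgeR adjusted p = 0.921). Ras85D, the Ras GTPase gene and the highest of the list in CPM, had 187 ± 6.70 CPM in Myb mutant discs and 205 ± 25.9 CPM in control discs (log2 fold change -0.13, edgeR adjusted p = 0.225). The genes called were aop, which encodes the repressor Yan that is removed by MAP kinase signalling (log2 fold change 0.28, edgeR adjusted p = 0.0399), ksr, a scaffold of the kinase cascade (0.17, 0.0182), and dos, an adaptor of the Gab family (0.14, 0.0127). The call of aop was kept in 2 of the 8 fits that left out a library and was lost without any one Myb mutant library or without control library 1. Its log2 fold change shrank to 0.16 when control library 2 was left out. ksr lost its call without Myb mutant library 2 or control library 3, and dos without Myb mutant library 2 or control library 1, and neither was called with summed libraries (edgeR adjusted p = 0.0829 and 0.131). None of the 18 genes was called without Myb mutant library 2, 1 was called without control library 1 and 5 without control library 2. In BDGP6 the exons of aop and ksr overlap genes on the opposite strand, and reads of such partners may not have been told apart, which holds also for tgo, hdc, Mmp1, Timp and Ama below.

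Genes of tracheal transcription factors and oxygen sensing gave few calls as well. Of 13 genes 12 were tested, since rib had fewer counts than the filter asked for, and 2 were higher while 10 were not called. The share called was 16.7%, beside 34.4% of all tested genes in either direction and 16.9% higher, and the median log2 fold change was 0.11. The genes called were salm, a zinc-finger gene of the trachea and of the wing (log2 fold change 0.26, edgeR adjusted p = 0.0301), and sima, which encodes the oxygen-regulated HIF-alpha (0.22, 0.0442). Neither was called without Myb mutant library 1, 2, 3 or 5, and sima was lost also without Myb mutant library 4 or control library 2 and salm without control library 1 (edgeR adjusted p up to 0.0936 for sima and 0.0665 for salm). Without control library 2 the log2 fold changes were smaller, at 0.16 for salm and 0.13 for sima. tgo, which encodes the partner of Trachealess, had 151 ± 2.69 CPM in Myb mutant discs and 159 ± 4.36 CPM in control discs (log2 fold change -0.08, edgeR adjusted p = 0.129). hdc, a gene of imaginal tracheal cells and the most abundant of the list, had 409 ± 39.7 CPM in Myb mutant discs and 260 ± 138 CPM in control discs and was not called (log2 fold change 0.65, edgeR adjusted p = 0.175). Control library 2, at 100.4 CPM, lay far below the other control libraries, at 344 and 336 CPM. Without it the log2 fold change of hdc was 0.26 (edgeR adjusted p = 0.0532), while with summed libraries hdc was called higher (0.61, edgeR adjusted p = 0.0132). The terminal cell factor gene bs had 57.3 ± 2.08 CPM in Myb mutant discs and 57.3 ± 2.10 CPM in control discs (edgeR adjusted p = 0.991).

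Genes of the tube lumen and apical matrix were called higher in 5 of 15 cases, while 10 were not called, and the median log2 fold change was 0.19. The share called was 33.3%, beside 34.4% of all tested genes in either direction and 16.9% higher. obst-E, a chitin-binding protein gene of the Gasp family, was low, at 0.975 ± 0.409 CPM in Myb mutant discs and 0.274 ± 0.0994 CPM in control discs (log2 fold change 1.82 ± 0.41 SE, edgeR adjusted p = 0.00897). Cda5, stored as CG31973, a chitin deacetylase gene, had 30.5 ± 2.69 CPM in Myb mutant discs and 16.4 ± 6.07 CPM in control discs (0.90 ± 0.22 SE, edgeR adjusted p = 0.0144). conv, stored as Als, which acts in tracheal tube size, had 132 ± 1.84 CPM in Myb mutant discs and 106 ± 12.1 CPM in control discs (0.32 ± 0.07 SE, edgeR adjusted p = 0.00604). wun2 and wun, lipid phosphate phosphatase genes of the tracheal barrier, were the others called, at log2 fold changes of 0.42 and 0.24. The calls of obst-E, Cda5, conv and wun2 held without any single library. With summed libraries Cda5 and conv were called, whereas obst-E and wun2 were not (edgeR adjusted p = 0.162 and 0.0721). Without control library 2, 8 of the 15 genes were called. In that fit the log2 fold changes were smaller for Cda5 (0.62), conv (0.23) and obst-E (1.59) and larger for wun2 (0.51). uif, stored as SP1070, an apical protein of tracheal cells and the most abundant gene of the list, had 1239 ± 88.3 CPM in Myb mutant discs and 1009 ± 230 CPM in control discs (log2 fold change 0.30, edgeR adjusted p = 0.128). It was called higher without control library 1 (log2 fold change 0.44, edgeR adjusted p = 0.0447). Without control library 2 its log2 fold change was 0.12 and it was not called (edgeR adjusted p = 0.268). kkv, the chitin synthase gene, had 421 ± 18.5 CPM and 403 ± 29.6 CPM (edgeR adjusted p = 0.475).

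Among 12 genes of branch migration and remodelling, 3 were higher, 1 was lower and 8 were not called, with a median log2 fold change of 0.25. The share called was 33.3%, close to the 34.4% of all tested genes. Mmp1, a matrix metalloprotease gene, had 56.6 ± 0.563 CPM in Myb mutant discs and 28.9 ± 1.80 CPM in control discs (log2 fold change 0.97 ± 0.05 SE, edgeR adjusted p = 1.18e-06). mys, the gene of an integrin beta subunit, had 399 ± 11.5 CPM in Myb mutant discs and 313 ± 21.8 CPM in control discs (0.35 ± 0.06 SE, edgeR adjusted p = 0.00193). Both calls held without any single library and with summed libraries. Timp, the gene of the metalloprotease inhibitor, was called higher (0.59, edgeR adjusted p = 0.0369) but kept the call in 2 of the 8 fits that left out a library. rho, which encodes an activator of EGF ligands used in tracheal invagination and wing veins, was lower (-0.38, edgeR adjusted p = 0.0173) and lost the call without control library 3 (edgeR adjusted p = 0.0592). With summed libraries neither Timp nor rho was called (edgeR adjusted p = 0.127 and 0.167). shg, the E-cadherin gene and the most abundant of the list, had 853 ± 22.8 CPM in Myb mutant discs and 780 ± 152 CPM in control discs (log2 fold change 0.13, edgeR adjusted p = 0.411), and its log2 fold change was -0.03 without control library 2. Without control library 2, 6 of the 12 genes were called.

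**Figure D4:**
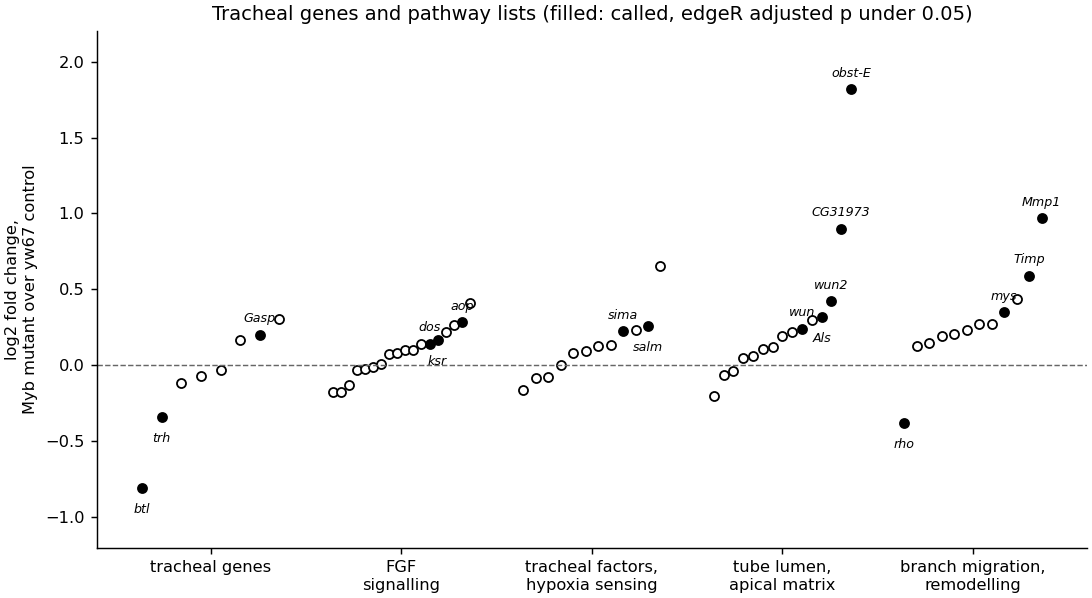
Log2 fold change of Myb mutant over yw67 control (y axis) for the 8 tracheal genes and the tested genes of the pathway lists (x axis), ordered within each list, with called genes filled and named. btl, trh and rho are the filled points below 0, and obst-E at 1.82 is the highest.

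Markers of the disc epithelium were detected in all libraries, and the cell types attached to a disc differed in how their markers moved. For comparison with the counts below, 34.4% of all tested genes were called, 17.5% lower and 16.9% higher. Of 8 genes of the disc epithelium, 2 were higher (dpp by 0.24 and ptc by 0.24 on the log2 scale), and the 8 genes summed to 1578 to 1625 CPM in Myb mutant libraries and 1356 to 1648 CPM in control libraries. The calls of dpp and ptc held without any single library, though both log2 fold changes were 0.16 without control library 2. Neither gene was called with the library number as a replicate block (edgeR adjusted p = 0.130 for dpp and 0.125 for ptc). Of 8 myoblast genes, hbs was higher (0.39) and Ama lower (-0.23), with sums of 711 to 772 CPM in Myb mutant libraries and 759 to 844 CPM in control libraries. Ama made up most of that sum, and the other 7 genes, all with log2 fold changes above 0, summed to 243 to 274 CPM in Myb mutant libraries and 216 to 234 CPM in control libraries. Ama lost its call without Myb mutant library 1, 3, 4 or 5. Of 10 hemocyte genes, 8 were lower, and the list summed to 47.1 to 67.6 CPM in Myb mutant libraries and 278 to 382 CPM in control libraries. Most of the sum in Myb mutant libraries was crq, at 40.5 ± 1.59 CPM, against 44.6 ± 5.31 CPM in control discs. It was not called (log2 fold change -0.14, edgeR adjusted p = 0.176). The 8 called hemocyte markers thus fell in the same libraries as btl and trh, and their part in those results was not tested. Of 7 fat body genes 0 were called by edgeR and 0 by DESeq2, with 0 at an unadjusted edgeR p under 0.05, and the list summed to 480 to 5287 CPM in Myb mutant libraries and 75.6 to 4648 CPM in control libraries. Of 6 larval muscle genes Mlc2 was higher (0.41), and of 3 tested genes of neurons and glia moody, a receptor gene of the glial barrier, was higher (1.01). The muscle list summed to 53.8 to 95.3 CPM in Myb mutant libraries and 51.0 to 69.3 CPM in control libraries, and the list of neurons and glia to 40.1 to 45.1 CPM in Myb mutant libraries and 21.3 to 32.7 CPM in control libraries, and their part in the results above was not tested.

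**Figure D5:**
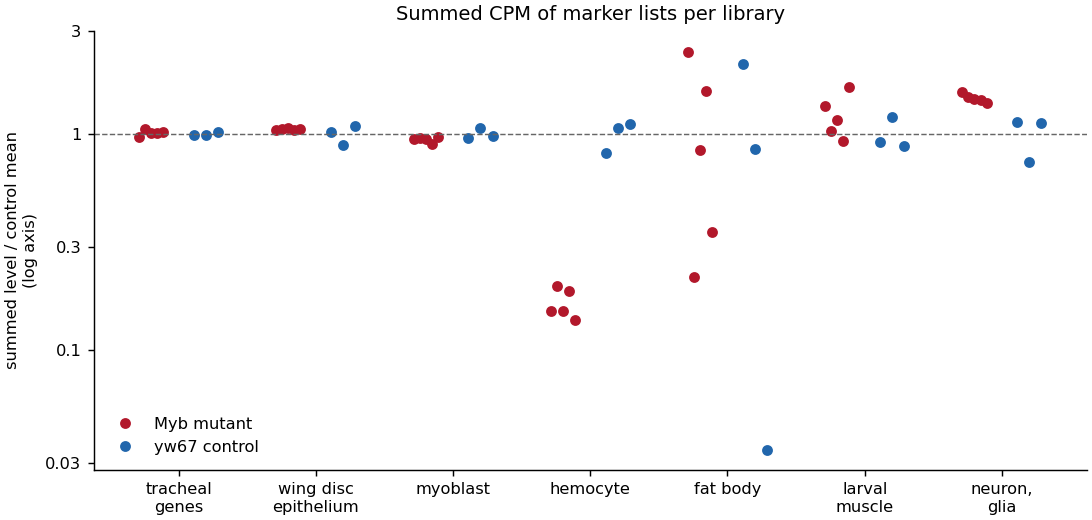
Summed CPM of each marker list in the 5 Myb mutant libraries (red) and the 3 yw67 control libraries (blue), divided by the mean of the control libraries (y axis, log scale). The tracheal sums, most of which are vvl and serp, the epithelial sums and the myoblast sums, most of which are Ama, stay near 1. The hemocyte sums of Myb mutant libraries, most of which are crq, lie far below 1, and the fat body sums scatter within each genotype.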

How the data were processed

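Polyadenylated RNA of dissected wing discs was sequenced by the authors on an Illumina HiSeq. The authors trimmed the reads with Trimmomatic (version 0.22 per the labels), aligned them by Bowtie2 (2.1.0) against exons from FlyBase release 5 of 2008, and used eXpress to count unique alignments per exon, from which gene totals were added up. These deposited values are raw read counts. Use of strand in counting is not given in the sources used here. The deposited log2 fold changes and p-values of the authors' DESeq2 fit were not used.

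The row pooling mitochondrial reads (0.574% to 1.34% of counts) was left out. The quasi-likelihood model of edgeR (4.0.16, under R 4.3.3) used filterByExpr, TMM and a genotype term alone, with the 8 libraries together. Each SE was derived from the log2 fold change and its F statistic. Positions and exon lengths come from BDGP6 (Ensembl release 115), another build than the one used for counting. Intervals cover 95%.

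The members and lists were chosen with earlier results of these data known. From each pathway list, up to 4 called genes of largest change and the most abundant gene were named, and other genes named were chosen after their values were seen. DESeq2 version 1.42.0, RLE scaling, 2 other filters, left-out libraries, summed libraries and a replicate block were alternatives. Scripts were tested on simulated counts.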

Additional observations from a re-analysis of the deposited data

Results flagged for a closer look

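Within the 5 Myb mutant libraries, 1 library stood apart for btl and 1 for trh, among 20 sets of 5 values examined, where chance would give about 1 in 20. Myb mutant library 3 had the highest btl level at 11.54 CPM, with the next at 9.567 CPM and the lowest at 8.966 CPM. It was still below all control libraries, and without it the log2 fold change of btl was -0.88. Myb mutant library 4 had the lowest trh level at 41.33 CPM, with the next at 44.22 CPM and the highest at 45.02 CPM, and without it the log2 fold change of trh was -0.33. Neither library was both the highest for btl and the lowest for trh.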

How the results depend on the processing

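btl and trh were called lower under all 14 alternatives, at edgeR or DESeq2 adjusted p up to 0.0248 and 0.0316. Of the 8 tracheal genes 2 to 3 were called without any single library. Gasp lost its call in 10 of 14 alternatives. Over the fits without one library, knrl ranged from -0.21 without control library 2 to 0.052 without control library 3, esg from -0.097 to 0.037 for the same libraries, and serp from -0.19 without control library 3 to 0.020 without control library 2 (log2 fold changes). Left-out libraries gave 2452 to 3460 calls over all genes, 0 to 5 for FGF signalling, 0 to 2 for tracheal factors, 5 to 8 for the lumen list and 3 to 6 for branch migration. Summing the libraries of each described biological replicate gave 1510 calls over all genes, 4 of the tracheal factors and 2 of the lumen list. Without a low-count filter 1 tracheal factor was called.

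Deviations of libraries with the same number correlated at 0.31, -0.11 and 0.03 across genes, so that the numbers were not taken to pair libraries, and not every library correlated best with its own number. With the library number as a replicate block 1397 genes were called over all genes, 0 for FGF signalling, 0 tracheal factors, 2 of the lumen list and 1 for branch migration, and of the 8 tracheal genes btl and trh. Counts per library limit the precision of low genes such as bnl, at 201 to 334 counts.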

Other observations

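Over the 8 libraries, the genes whose log2(CPM + 1) was most like that of btl, among 7918 genes compared, were CG17912, Grip84 and CG6623 (Pearson's r of 0.986, 0.982 and 0.981). Grip84 encodes a subunit of the gamma-tubulin ring complex, with 98.1 ± 2.05 CPM in Myb mutant discs and 109 ± 0.416 CPM in control discs. Those most like trh were CG34132, Patj and cyp33 (0.993, 0.985 and 0.985), of which Patj, a polarity gene, had 90.4 ± 1.87 CPM in Myb mutant discs and 107 ± 2.56 CPM in control discs. These genes were all called lower in Myb mutant discs by edgeR. Those most like Gasp were CG32177, CG9336 and L (0.969, 0.964 and 0.960), of which L had 150 ± 15.5 CPM in Myb mutant discs and 128 ± 0.619 CPM in control discs and was not called (edgeR adjusted p = 0.0530). These correlations are a description over 8 libraries that share the difference between genotypes, and the 8 tracheal genes and LCBP1 were left out of the genes compared.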
